A study of Homo sapiens with 4 samples.

Results

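The expression of MLL, of its fusion partner MLLT3 and of 8 genes whose products work with them was read from microarrays of THP1 cells in which the fusion transcript MLL-AF9 had been knocked down. All probes named for MLL, MEN1, PSIP1, MLLT3, MLLT1, AFF1, AFF4, ELL, CDK9 or DOT1L that were no control spots and had a quality weight above 0 on all 4 arrays were taken, which gave 22 probes of 10 genes, among 26219 probes and 17938 named genes analysed. All 31 spots of these genes entered. MLL had 4 probes, DOT1L had 3, CDK9 had 1 probe on 10 identical spots, and each of the other genes had 2 probes.

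THP1 is an established monocytic cell line of acute myeloid leukemia (AML M5) that carries the MLL-AF9 fusion, in controls as in knockdown treatments. The knockdown was performed with siRNA-A or siRNA-B, which are directed against the fusion point of the transcript, and control siRNA-1 and control siRNA-2 have no target. Cells were transfected on days 0, 3 and 6 and harvested on day 8, in medium with 10% serum until day 6 and 0.5% serum thereafter. The RNA of 5 experiments was pooled for each array, and each of the 2 knockdown and 2 control arrays stands for a different siRNA. The p-values below therefore rest on 4 pools and do not measure the spread between the experiments in a pool. In limma the variance of each probe is moderated with that of all probes. Standard errors and p-values thus do not reflect the spread of that probe alone. Values of single arrays are given in the order siRNA-A, siRNA-B, control siRNA-1, control siRNA-2 throughout. As all arrays lay on 1 slide with the treatments at different positions, position and treatment cannot be told apart.

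MLL (current symbol KMT2A) encodes a histone methyltransferase that keeps developmental genes such as the HOXA cluster active. Menin, the product of MEN1, and LEDGF, the product of PSIP1, tether MLL and its fusion proteins to chromatin. AF9, the product of MLLT3, and its paralog ENL, the product of MLLT1, read acetylated histones through a YEATS domain and bind AFF1 and AFF4, the scaffolds of the super elongation complex. This complex also holds the elongation factor ELL and the kinase CDK9, which releases paused RNA polymerase II. AF9 binds the histone H3 lysine 79 methyltransferase DOT1L as well. In MLL-AF9 the amino-terminal part of MLL, with its menin-binding and DNA-binding regions, is joined to the carboxy-terminal part of AF9, with its binding site for the AFF scaffolds and DOT1L.

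Which transcripts a probe can detect depends on its side of the fusion point, so the probes that carry the comparison are shown first. They are designed array oligonucleotides of 60 bases, written 5′ to 3′ in the sense of the transcript, with coordinates of the human genome build hg19 as given by the scanner software. Their place relative to the fusion point follows from the protein domains they encode and from general knowledge of the MLL breakpoint region, since the fusion point itself was not mapped here. The probe A_33_P3390570 (chr11:118348856-118348915, plus strand) lies in the coding sequence of the CXXC domain, 5′ of the fusion point, and can detect both wild-type MLL and MLL-AF9.
MLL A_33_P3390570: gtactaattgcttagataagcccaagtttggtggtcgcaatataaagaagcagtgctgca
The MLL probes A_24_P136402 (chr11:118361998-118362491, plus strand, across at least 1 splice junction, as its 60 bases span 494 bases of genome) and A_33_P3390576 (chr11:118362577-118362636, plus strand) lie in coding sequence 3′ of the fusion point, which the fusion transcript lacks. One more such probe, A_33_P3307307 (chr11:118395871-118395930, plus strand), lies near the 3′ end of MLL.
MLL A_24_P136402: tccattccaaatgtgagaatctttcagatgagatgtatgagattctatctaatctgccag
MLL A_33_P3390576: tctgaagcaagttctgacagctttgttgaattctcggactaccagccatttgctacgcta
The MLLT3 probe A_23_P216693 (chr9:20346480-20346539, minus strand) encodes part of the carboxy-terminal end of AF9, which the fusion retains. The other MLLT3 probe, A_24_P192627 (chr9:20345191-20345250, minus strand), lies 1.29 kb further 3′. Both MLLT3 probes can detect wild-type MLLT3 and MLL-AF9 and do not tell them apart.
MLLT3 A_23_P216693: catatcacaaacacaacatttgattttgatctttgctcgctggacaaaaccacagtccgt

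Values are log2 of the deposited spot intensity, to which no background correction and no normalization between arrays had been applied. The median log2 intensity of all probes lay between 8.17 and 8.26 on the 4 arrays, and that of the negative control spots between 4.75 and 4.83. A call required an unadjusted p under 0.005 in limma, the criterion used for single probes in the methods of the study, and the p adjusted over all 26219 probes (Benjamini-Hochberg) is given beside it. Of the 22 probes, 21 were well above background on all 4 arrays and 0 were saturated. As the intensity of a probe depends on its sequence, levels of different probes are not read as amounts of transcript, and intensity was used across probes to choose the brightest probe of a gene, to take differences within an array and to sum marker genes. Of 12 monocytic AML marker genes 10 were measured, all of them well above background on all arrays, with a summed level of 18.69 and 18.61 on the log2 scale after knockdown and 18.99 and 19.14 in controls. This sum follows CTSG and ELANE, the brightest of them, while single markers moved both ways: of 2 called genes ELANE was lower (log2 fold change -0.47) and CD14 higher (1.05). Of 13 marker genes of T cells, B cells, erythroid, epithelial and fibroblast cells 12 were measured, with summed levels between 11.78 and 11.83 on the log2 scale. Of these, 9 were well above background on all arrays, including CD79A of B cells, whereas MS4A1, HBB and COL1A2 were not. The part of these markers in the values below was not tested.

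**Figure D1:**
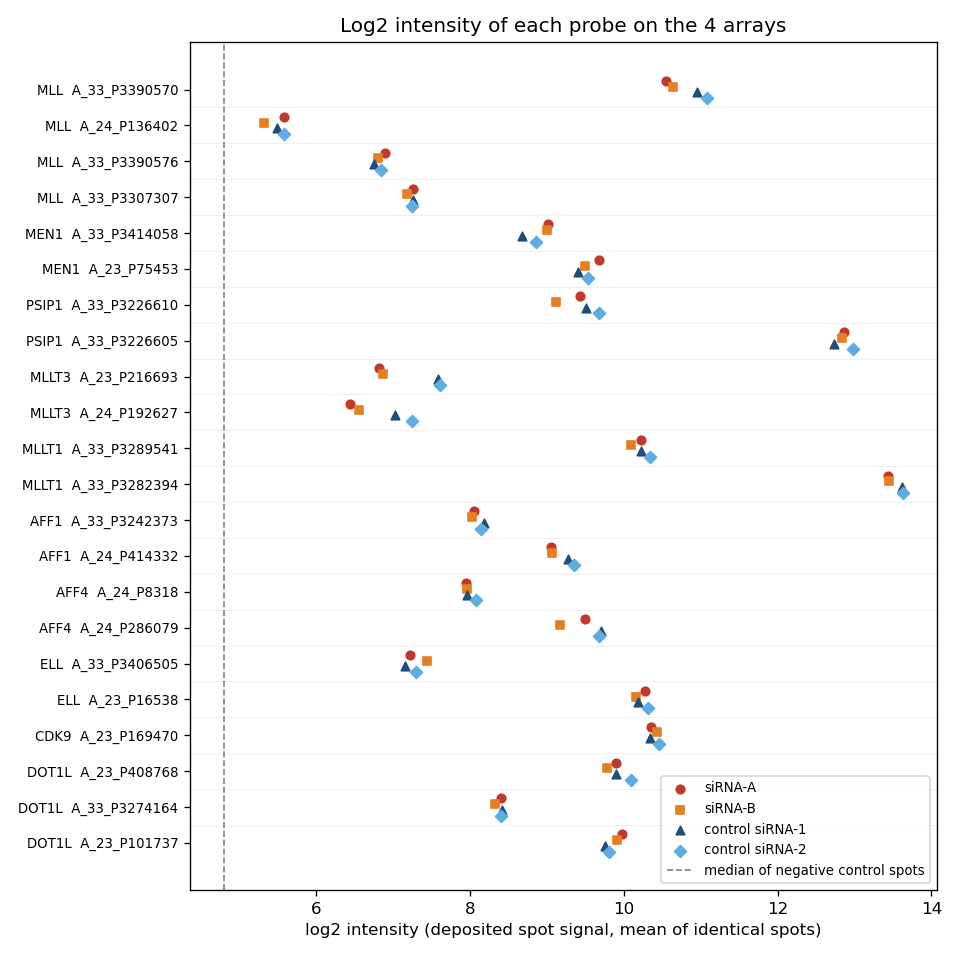
Log2 intensity of each of the 22 probes (x axis, deposited spot signal, mean of identical spots) for siRNA-A, siRNA-B and both controls, with 1 point per array and the median of the negative control spots as a dashed line. The knockdown and control points are separate at both MLLT3 probes and at the MLL probe A_33_P3390570, and the MLL probe A_24_P136402 lies closest to the negative controls.

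MLLT3 was the one gene of the 10 with called probes, and both of its probes fell after knockdown. The intensity at A_23_P216693 was 59.2% and at A_24_P192627 64.5% of that in controls. Across all 10 genes, 2 of 22 probes were called, both of them lower, where 1.32% of all probes were called, 0.732% as lower and 0.584% as higher. In limma 0 of the 22 probes, and 0.118% of all probes, had an adjusted p under 0.05, while an unadjusted p under 0.05 was reached by 6 of the 22 probes and by 8.06% of all probes (4.9% lower and 3.15% higher). These 6 were lower after knockdown and belonged to MLLT3, MLL, AFF4, PSIP1 and AFF1. Knockdown and control arrays did not overlap at 12 probes, 10 of them lower and 2 higher after knockdown. Among all probes this held for 36.6%, with 21.4% lower and 15.2% higher. The median log2 fold change was -0.074 over the 22 probes and -0.018 over all probes. Without the probes of MLL and MLLT3, 0 of 16 probes were called and 3, all lower, had an unadjusted p under 0.05 in limma. The median log2 fold change of these 16 probes was -0.052.

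At the MLLT3 probe A_23_P216693 the log2 intensity was 6.82 with siRNA-A, 6.87 with siRNA-B, 7.59 with control siRNA-1 and 7.61 with control siRNA-2. The groups did not overlap, and the arrays were 0.050 apart within the knockdown and 0.026 within the control group. The log2 fold change was -0.76 with a standard error of 0.11 (95% confidence interval -1.003 to -0.51, adjusted p = 0.0639 in limma). The probe was called under each of 12 alternative settings of processing, with log2 fold changes between -0.95 and -0.58 and adjusted p in limma between 0.027 (filter on dim probes) and 1 (without control siRNA-2). After background subtraction by the scanner software its signals were 76.1 and 78.8 in the knockdown arrays and 148 and 150 in the control arrays, and the log2 fold change was -0.95 on that scale.

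The MLLT3 probe A_24_P192627 had log2 intensities of 6.44 and 6.55 after knockdown and of 7.02 and 7.24 in controls. The groups again did not overlap, though the controls lay further apart than at the other probe. The log2 fold change was -0.63 with a standard error of 0.12 (95% confidence interval -0.91 to -0.35, adjusted p = 0.182 in limma). Its call was lost when any 1 array was left out (-0.74 to -0.52) and with the scanner's background-subtracted signal, both scaled to its 75th percentile (-0.83) and unscaled (-0.86). Either siRNA gave lower values than both controls at both probes, by 0.78 and 0.69 on the log2 scale against the mean of the controls for siRNA-A and by 0.73 and 0.58 for siRNA-B. In such bulk RNA, fewer cells with the transcript and less transcript per cell cannot be told apart.

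Of the 4 MLL probes, none was called, where 1.32% of all probes were. Groups did not overlap at 1 of them, the probe 5′ of the fusion point, where this held for 36.6% of all probes. At this probe, A_33_P3390570, the log2 intensity was 10.55 and 10.64 after knockdown and 10.95 and 11.08 in controls. Both knockdown arrays thus lay below both control arrays, at 75.1% of the control intensity. The log2 fold change of -0.41 with a standard error of 0.11 (95% confidence interval -0.67 to -0.15) did not pass the threshold for a call (unadjusted p = 0.0059 and adjusted p = 0.403 in limma). The probe was called in 4 of 12 alternative settings, namely after quantile normalization, cyclic loess normalization, normexp background correction with quantile normalization, and a filter on dim probes, at log2 fold changes between -0.41 and -0.38.

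At the 3 MLL probes 3′ of the fusion point, which detect wild-type MLL but not MLL-AF9, the groups overlapped. A_33_P3390576 had log2 intensities of 6.89 and 6.80 after knockdown and of 6.75 and 6.85 in the controls. A_33_P3307307, at the 3′ end, had 7.26 and 7.18 in the knockdown arrays and 7.26 and 7.24 in the controls. Neither probe was called, and the 95% confidence intervals of their log2 fold changes, -0.21 to 0.30 and -0.28 to 0.22, leave room for changes of either direction up to those bounds (adjusted p = 0.953 and 0.978 in limma). A_24_P136402 was close to background, with log2 intensities of 5.58 and 5.32 in the knockdown arrays and 5.49 and 5.58 in the controls. It was well above background in 1 of 2 knockdown arrays and in both control arrays, and its log2 fold change of -0.085 had a 95% confidence interval of -0.37 to 0.20 (adjusted p = 0.913 in limma). With the unscaled background-subtracted signal this value was -0.36.

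The 5′ and 3′ sides of MLL were compared within each array by subtracting the mean log2 intensity of the 3 probes 3′ of the fusion point from that of the 5′ probe. This difference was 3.98 with siRNA-A and 4.21 with siRNA-B, as against 4.45 and 4.52 in the control arrays. The 5′ probe was therefore lower relative to the 3′ probes in both knockdown arrays than in either control array, by 0.39 on the log2 scale (4.09 ± 0.16 against 4.48 ± 0.049, SD, n = 2 arrays each). The exact two-sided permutation test gave p = 0.333, the smallest value that 2 arrays against 2 allow. With the 2 brighter 3′ probes alone, a choice made after seeing the data, the difference between knockdown and control was -0.42. With all 3 it ranged from -0.51 to -0.27 over the processing alternatives and the omission of single arrays. The distances along the gene are 13.1, 13.7 and 47.0 kb from the 5′ probe.

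**Figure D2:**
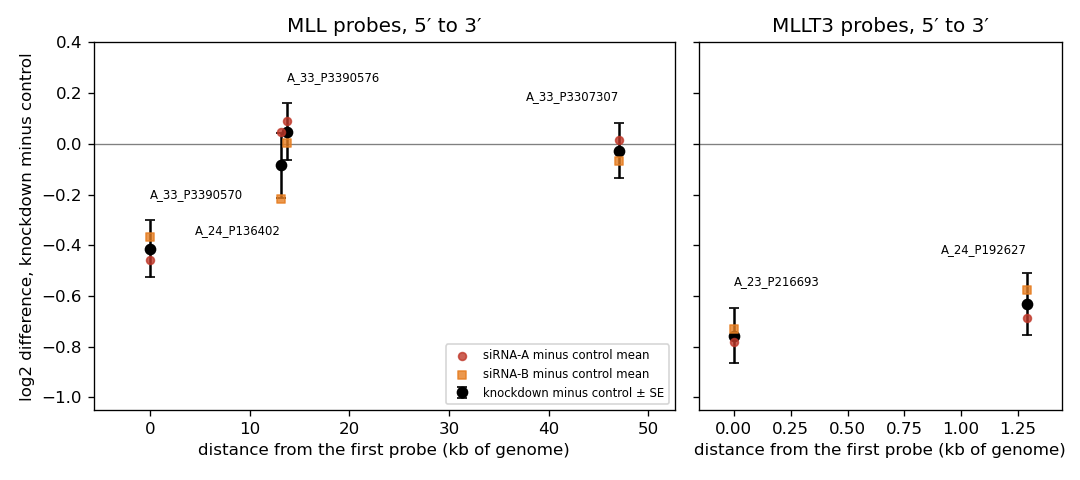
Log2 difference between knockdown and control (y axis) at the 4 MLL probes (left) and the 2 MLLT3 probes (right), by distance in the genome from the first probe of each gene (x axis, kb, in the direction of transcription), with the log2 fold change ± standard error in black and each siRNA against the mean of the controls in colour. The 5′ MLL probe lies at -0.41 and the 3 probes 13.1 to 47.0 kb further 3′ lie between -0.085 and 0.048, while both MLLT3 probes lie at or below -0.63.

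The 2 MLL cofactors showed no called probe. For MEN1, the gene of menin, the probe A_33_P3414058 had log2 intensities of 9.011 and 9.003 after knockdown and of 8.68 and 8.86 in the control arrays, so that both knockdown arrays lay above both controls. Its log2 fold change was 0.24 with a standard error of 0.12 (95% confidence interval -0.028 to 0.50, adjusted p = 0.679 in limma). At A_23_P75453, 0.246 kb further 3′, the values were 9.67 and 9.50 after knockdown and 9.40 and 9.54 in controls, and the groups overlapped (log2 fold change 0.12, adjusted p = 0.863 in limma). With 1 array left out the MEN1 estimates ranged from 0.14 (without control siRNA-1) to 0.33 at the former probe and from 0.031 (without siRNA-A) to 0.20 at the latter.

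The 2 probes of PSIP1, the gene of LEDGF, differed from each other. A_33_P3226610 had log2 intensities of 9.43 and 9.12 after knockdown and of 9.51 and 9.68 in the control arrays, and the groups did not overlap. The log2 fold change of -0.32 had a standard error of 0.14 (unadjusted p = 0.0438 and adjusted p = 0.609 in limma) and rested largely on siRNA-B, being -0.17 without that array and -0.47 without siRNA-A. At A_33_P3226605, 9.74 kb further 3′ in the genome, the values were 12.86 and 12.84 after knockdown and 12.73 and 12.98 in controls. Here the knockdown arrays lay between the controls (log2 fold change -0.0038, 95% confidence interval -0.28 to 0.28). The difference between the probes was not tested.

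MLLT1, the gene of ENL and the paralog of MLLT3, had no called probe. At both of its probes the knockdown arrays lay below the controls, where this held for 21.4% of all probes. A_33_P3282394 had log2 intensities of 13.43 and 13.45 after knockdown and of 13.62 and 13.63 in the control arrays. Both pairs were tight, with 0.018 between the knockdown arrays and 0.0065 between the controls, and the groups did not overlap. Its log2 fold change was -0.18 with a standard error of 0.11 (95% confidence interval -0.43 to 0.065, adjusted p = 0.746 in limma). A_33_P3289541 had 10.23 and 10.10 after knockdown and 10.23 and 10.34 in controls, where the siRNA-A and control siRNA-1 arrays were nearly equal (log2 fold change -0.12, adjusted p = 0.854 in limma). Omission of siRNA-B gave -0.056 and omission of siRNA-A -0.18. The difference between the paralogs was not tested.

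The 2 scaffold genes of the super elongation complex had 4 probes, of which 0 were called, where 1.32% of all probes were. At 3 of them the knockdown arrays lay below both controls, where this held for 21.4% of all probes. At A_24_P286079 of AFF4 the log2 intensity was 9.49 with siRNA-A, 9.16 with siRNA-B and 9.70 and 9.68 in controls. The controls were 0.020 apart, and the siRNA arrays were 0.33 apart. The log2 fold change was -0.36 with a standard error of 0.13 (95% confidence interval -0.66 to -0.053, unadjusted p = 0.0264 and adjusted p = 0.554 in limma). Omission of the siRNA-B array gave -0.19 and omission of the siRNA-A array -0.52. The other AFF4 probe, A_24_P8318, which lies 58.4 kb further 5′, had 7.95 and 7.96 after knockdown and 7.95 and 8.08 in controls, so that the groups overlapped (log2 fold change -0.064, adjusted p = 0.929 in limma). At that probe, omission of control siRNA-1 gave -0.13 and omission of control siRNA-2 gave -1.2e-05.

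For AFF1, the gene of AF4, the probe A_24_P414332 had log2 intensities of 9.06 and 9.07 after knockdown and of 9.28 and 9.36 in the control arrays. Both siRNAs gave nearly the same value, below both controls. The log2 fold change was -0.26 with a standard error of 0.11 (95% confidence interval -0.51 to -0.0078, unadjusted p = 0.0446 and adjusted p = 0.609 in limma). At A_33_P3242373, 24.9 kb further 5′, values of 8.05 and 8.02 after knockdown and of 8.18 and 8.14 in controls did not overlap either, with a log2 fold change of -0.13 (adjusted p = 0.825 in limma). Both AFF1 estimates were below 0 under each of the 12 alternatives.

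ELL and CDK9, the elongation factor and the kinase of the complex, were not called and had overlapping groups at all of their probes. The ELL probe A_33_P3406505 had log2 intensities of 7.21 and 7.43 after knockdown and of 7.16 and 7.29 in the control arrays (log2 fold change 0.097, adjusted p = 0.894 in limma). A_23_P16538, 7.67 kb further 3′, had 10.27 and 10.16 after knockdown and 10.18 and 10.31 in controls (log2 fold change -0.034, adjusted p = 0.972 in limma). The 2 siRNAs stood in opposite order at these probes. CDK9 was measured on 10 spots of its probe A_23_P169470, whose means were 10.36 and 10.43 after knockdown and 10.34 and 10.46 in controls. Its log2 fold change of -0.0046 had a 95% confidence interval of -0.26 to 0.25 (adjusted p = 0.997 in limma). Among the single spots 6 were lower and 4 higher after knockdown, with log2 fold changes between -0.12 and 0.15, and on 1 array the 10 spots had a standard deviation between 0.12 and 0.22 on the log2 scale. The spots are repeats of 1 probe on the same arrays and no replicates of the treatment.

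The 3 probes of DOT1L, the methyltransferase that AF9 and ENL bind, had log2 fold changes of either sign, and none was called. A_23_P408768 had log2 intensities of 9.90 and 9.78 after knockdown and of 9.90 and 10.09 in the control arrays, with the siRNA-A and control siRNA-1 arrays nearly equal (log2 fold change -0.15, adjusted p = 0.811 in limma). This value lay between -0.25 (without control siRNA-1) and -0.060 (without control siRNA-2) when 1 array was omitted and was -0.054 with the scaled background-subtracted signal. A_33_P3274164 carries the name DOT1L on the array but was not matched to a RefSeq transcript, and it starts 1.18 kb further 3′, within the genomic span of the spliced first probe. It had 8.41 and 8.33 after knockdown and 8.41 and 8.41 in controls (log2 fold change -0.040, adjusted p = 0.963 in limma). Its log2 fold change was -0.079 without siRNA-A and -0.0021 without siRNA-B. A_23_P101737, 5.07 kb from the first probe, had 9.98 and 9.92 after knockdown and 9.76 and 9.81 in controls. This was the one DOT1L probe at which both knockdown arrays lay above both controls, with a log2 fold change of 0.16 (95% confidence interval -0.088 to 0.41, adjusted p = 0.779 in limma), and of 0.085 and 0.054 with the scaled and the unscaled background-subtracted signal. The difference between the DOT1L probes was not tested.

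**Figure D3:**
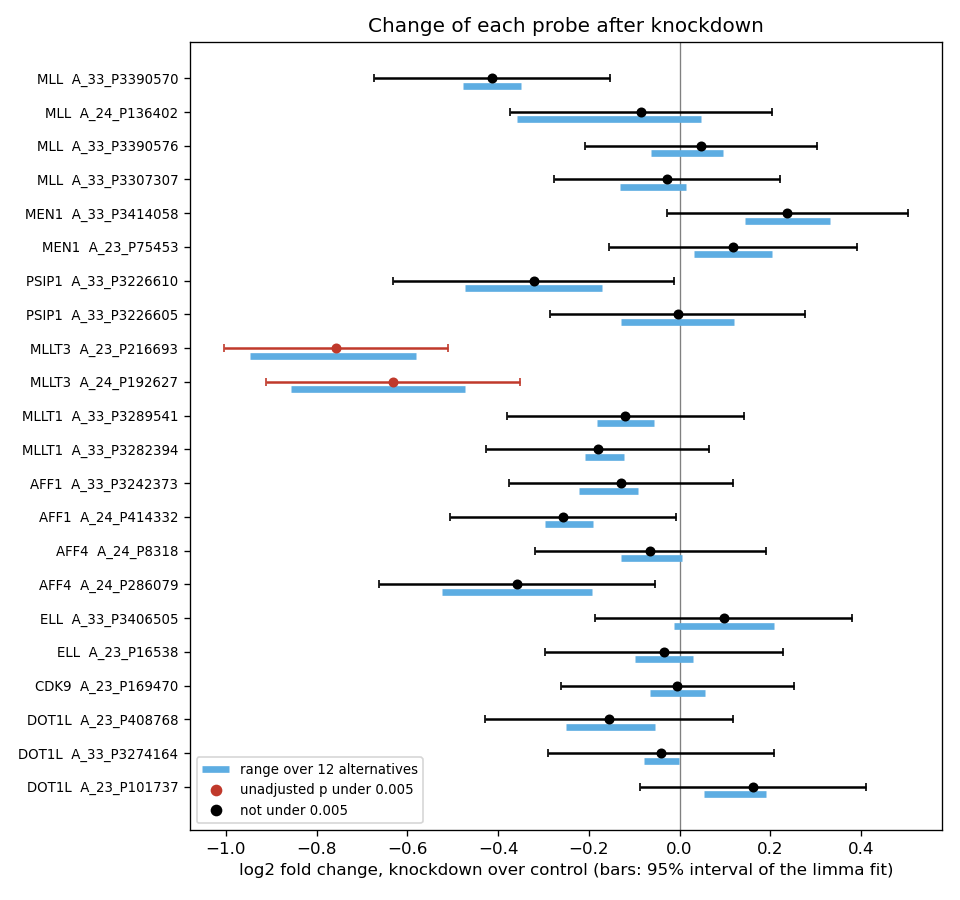
Log2 fold change between knockdown and control (x axis) of the 22 probes with its 95% confidence interval in limma (thin bars) and the range of the value over 12 alternative settings (blue bars), with probes at an unadjusted p under 0.005 in red. Both MLLT3 probes are red and their intervals end below -0.35, and most other intervals span 0, except those of MLL A_33_P3390570, PSIP1 A_33_P3226610, AFF1 A_24_P414332 and AFF4 A_24_P286079.

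The spread within each group was set beside these differences. At 10 of the 22 probes the difference between knockdown and control was larger than both the gap between the 2 siRNA arrays and the gap between the 2 control arrays, as against 24.4% of all probes. The median gap was 0.085 on the log2 scale between the siRNAs and 0.12 between the controls over the 22 probes, and 0.14 and 0.11 over all probes. Control siRNA-2 was above control siRNA-1 at 18 of 22 probes, as against 67.0% of all probes, and siRNA-B was above siRNA-A at 8 of 22, as against 61.7% of all probes. Among the 6 probes with an unadjusted p under 0.05 in limma, siRNA-B gave the lower value of the 2 siRNAs at AFF4 A_24_P286079 and PSIP1 A_33_P3226610 and the higher value at the other 4.

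On the brightest probe of each gene, 1 of the 10 genes was called, where 1.33% of 17938 genes were (0.702% lower and 0.63% higher), and the median log2 fold change was -0.17, as against -0.021 over all genes. This median includes MLL and MLLT3, whose brightest probes can detect the fusion transcript. Over all 16 probes of the other genes the median was -0.052. To see the 10 genes beside the wider machinery, 42 further genes of transcription elongation were read in the same way, and all 42 were measured. They were relatives of the super elongation complex, cyclins and regulators of CDK9, the DOT1L complex with AF9 binding partners, the PAF1 complex and the pausing factors. Elongin and TFIIS, the histone chaperone FACT, other elongation kinases with a cyclin, TASP1 for MLL cleavage and HDGFRP2, a LEDGF relative, were also included. Not one was called (0 of 42 in limma). An unadjusted p under 0.05 was found for 3 of them, 1 lower and 2 higher after knockdown, where 8% of all genes passed (4.74% lower and 3.26% higher). Groups did not overlap for 11 genes, 6 lower and 5 higher, where 36.2% of all genes did not overlap (21.2% lower and 15% higher), and the median log2 fold change was -0.015.

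Among the elongation genes whose groups did not overlap, the largest positive differences were those of ELL2, TCEA2 and CCNT1. ELL2, a paralog of ELL, had log2 intensities of 10.96 and 11.10 after knockdown and of 10.75 and 10.63 in the controls (log2 fold change 0.35, adjusted p = 0.508 in limma). TCEA2, a TFIIS factor that restarts arrested polymerase, had a log2 fold change of 0.32 (adjusted p = 0.512 in limma) at its brighter probe and of 0.013 at its other probe, which was well above background on 1 control array alone. CCNT1, the cyclin partner of CDK9, had 0.20 (adjusted p = 0.751 in limma), and 0.082 and 0.32 on omission of control siRNA-1 and of control siRNA-2. The largest negative differences were those of WDR61, SUPT16H and HEXIM2. WDR61, a subunit of the PAF1 complex, had log2 intensities of 12.27 and 12.18 after knockdown and of 12.52 and 12.66 in controls (log2 fold change -0.36, adjusted p = 0.477 in limma). SUPT16H, a subunit of FACT, had -0.32 and HEXIM2, an inhibitor of CDK9, had -0.28 (adjusted p = 0.640 and 0.692 in limma), and neither was called. For SUPT16H, omission of the siRNA-A array gave -0.13 and omission of the siRNA-B array -0.51. For HEXIM2, omission of the control siRNA-2 array gave -0.098 and omission of the control siRNA-1 array -0.46.

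Of 30 other translocation partners of MLL, 28 were measured, and 1 was called, where 1.33% of all genes were (0.63% higher). AFF3, MLLT6 and MLLT10 also belonged to the elongation list and were counted in both. ARHGAP26, a GTPase-activating protein also known as GRAF, had log2 intensities of 10.56 and 10.80 after knockdown and of 10.25 and 10.11 in the controls. Its log2 fold change was 0.50 with a standard error of 0.13 (adjusted p = 0.333 in limma), and its call was lost when any 1 array was left out (0.38 to 0.62). MAML2, a coactivator of Notch signalling, was well above background in 1 knockdown array and in neither control array and had mean log2 intensities of 5.43 and 4.97, respectively. No call was made for MAML2 (adjusted p = 0.382 in limma). CBL, a ubiquitin ligase, had a log2 fold change of 0.27 (adjusted p = 0.703 in limma), which was 0.11 on omission of siRNA-B, 0.17 on omission of control siRNA-1 and 0.43 on omission of siRNA-A. SEPT2, a septin, was the one partner with both knockdown arrays below both controls, at -0.12 (adjusted p = 0.843 in limma) on its brightest probe, whereas the groups overlapped at its other probe (-0.065). Groups did not overlap for 7 of the 28 partners, 6 higher and 1 lower, where 36.2% of all genes did not overlap (15% higher and 21.2% lower), and the median log2 fold change was 0.027.

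**Figure D4:**
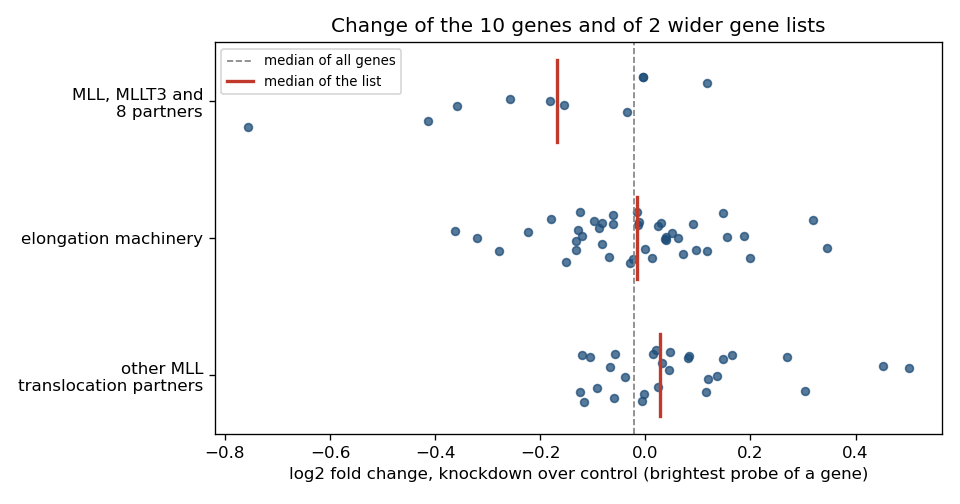
Log2 fold change between knockdown and control (x axis) of the brightest probe of each gene, with 1 point per gene, for the 10 genes, for 42 elongation genes and for 28 other translocation partners of MLL, with the median of each list in red and that of all genes dashed. MLLT3 is the lowest point at -0.76, and the medians of the wider lists, -0.015 and 0.027, lie close to that of all genes at -0.021.

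The probes whose pattern over the 4 arrays was most like that of MLLT3 A_23_P216693 were found by the root mean square difference of log2 values centred on their mean. They detected NDUFA4, a component of the mitochondrial respiratory chain, at a difference of 0.031, ZNF521, a zinc finger cofactor of transcription, at 0.033, and ATP5G2, a subunit of mitochondrial ATP synthase, at 0.057. Their log2 fold changes were -0.72, -0.73 and -0.67. With 4 arrays such a likeness is a description of these arrays.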

How the data were processed

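RNA of THP1 cells, in pools of 5 experiments, was measured on 4 single-colour Agilent arrays. The authors extracted spots with Agilent Feature Extraction 10.5.1.1 and deposited, for each spot, an intensity without background correction or normalization between arrays, and a quality weight of unstated origin. In 100% of the 44495 spots this value matched the scanner's median pixel signal (tolerance 0.01). After omission of 1377 control spots and of spots with weight 0 on any array, 33323 spots on 26219 probes remained. Identical spots were averaged, and R 4.3.3 with limma 3.58.1 was used to fit log2 values under the deposited weights, 2 knockdown against 2 control arrays, two-sided, without covariates. The variance of each probe was moderated over all probes (empirical Bayes). The pipeline was checked on simulated data. Gene names are those of the arrays; the deposited table had turned 36 names of spots into other forms, such as dates, so that the scanner names were used for gene lists.

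Named were all probes of the 10 genes, called genes of the 2 wider lists with the 3 largest rises and falls among their non-overlapping genes, and the 3 nearest profiles. The members and lists were chosen with earlier results of these data known. Alternatives were the background-subtracted signal with and without scaling to its 75th percentile, quantile and cyclic loess normalization, normexp with an offset of 50, an intensity trend, omission of weights, omission of dim probes, the most changed probe of a gene, an adjusted p under 0.05, and omission of each array. The number of arrays limits the precision.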

Additional observations from a re-analysis of the deposited data

How the results depend on the processing

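No paired analysis was possible because each array held the pooled RNA of 5 experiments with 1 siRNA. Among 22 probes of the 10 genes, the call of MLLT3 A_23_P216693 held under all 12 alternatives run for single probes. The number of called member probes went from 2 to 1 with either form of the background-subtracted signal, and to 1 (lowest and highest) when any 1 array was left out, the lost call being MLLT3 A_24_P192627, and to 0 at an adjusted p under 0.05. It was 3, with MLL A_33_P3390570, after quantile, cyclic loess, and normexp with quantile normalization and with the filter on dim probes. MLLT3 A_23_P216693 had an adjusted p of 0.027 with that filter and 0.034 with an intensity trend. Of all probes, 345 were called, as against 411 with the filter on dim probes, 226 with the scaled background-subtracted signal, 31 at an adjusted p under 0.05 (0 after each normalization, with either background-subtracted signal or with any 1 array left out), and 78 to 242 with 1 array left out. The share of called probes that were lower, 55.7%, was 65.1% with the unscaled background-subtracted signal and 73.1% without control siRNA-2, 67.7% without siRNA-A and 43.8% without siRNA-B. The elongation list had 1 call, TCEA2 (0.36), after normexp and quantile normalization, and the partner list had 0 (lowest and highest) when any 1 array was left out. With the background-subtracted signal ARHGAP26 (0.60 scaled, 0.57 unscaled) was not called, and the 1 call was MAML2, for which no fold is given because neither control array was well above background. The median log2 fold change of the elongation list was 0.018 after quantile normalization and -0.057 for the unscaled background-subtracted signal. It ranged from -0.087 (without control siRNA-1) to 0.069 (without siRNA-A) with 1 array left out, and that of the partner list from -0.061 (without control siRNA-1) to 0.078 (without siRNA-A).

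Among the named probes, signs reversed for 8 whose log2 fold change lay between -0.085 and 0.097. For the background-subtracted signal after scaling, the log2 fold change was -0.031 for MLL A_33_P3390576, 0.089 for PSIP1 A_33_P3226605, 0.028 for ELL A_23_P16538 and 0.021 for CDK9, and unscaled it was -0.062 for MLL A_33_P3390576 and 0.059 for PSIP1 A_33_P3226605. After quantile and cyclic loess normalization it was 0.045 and 0.047 for PSIP1 A_33_P3226605 and 0.024 and 0.026 for CDK9. After normexp and quantile normalization it was 0.0056 for MLL A_33_P3307307, 0.068 for PSIP1 A_33_P3226605, 0.0051 for AFF4 A_24_P8318, 0.0044 for ELL A_23_P16538 and 0.033 for CDK9. With 1 array left out the values ranged from -0.22 to 0.047 for MLL A_24_P136402, from -0.00067 to 0.097 for MLL A_33_P3390576, from -0.068 to 0.014 for MLL A_33_P3307307, from -0.13 to 0.12 for PSIP1 A_33_P3226605, from -0.013 to 0.21 for ELL A_33_P3406505, from -0.099 to 0.030 for ELL A_23_P16538 and from -0.066 to 0.056 for CDK9. The causes were not tested. A group reduced to 1 array was taken to vary as the other group did. Signals near background, as at MLL A_24_P136402, limit what can be seen.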
